A study of Arabidopsis thaliana with 9 samples.

Results

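The F1 hybrid of the Arabidopsis thaliana accessions Col and C24 was compared with its C24 parent on all 22746 probe sets of the array, leaving out controls. The comparison used 6 of the 9 arrays of the study, 3 of F1 and 3 of C24, each called a biological replicate in the labels. All seedlings were taken at 10 DAS, as the labels write the age, after growth at 22 degrees under fluorescent lights, with a photoperiod given as 16 h and 8 h. RNA came from whole plants with the roots removed. The remaining 3 arrays, of the Col parent, entered the fit to steady the estimate of the spread, and their values are given beside some genes as a description. The labels give neither the direction of the cross nor the number of plants in a sample, so p-values measure the spread between these samples.

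An F1 plant carries 1 genome copy from each parent, and F1 seedlings of Col and C24 are known for growing larger than either parent. A gene with unequal alleles in Col and C24 can give an F1 signal anywhere between the parents or outside them. C24 is itself an accession known for a raised basal defence state, in which salicylic acid signalling and NLR proteins, the intracellular immune receptors with nucleotide-binding and leucine-rich repeat domains, have been studied. The array's probes were designed on the Col sequence, so a lower C24 signal may come from sequence differences under the probes as well as from less transcript, and these cannot be told apart here. In whole seedlings, fewer cells of a type and less RNA per cell cannot be told apart either.

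Signals are quantile-normalized probe-set intensities on a linear scale. Arrays of F1 correlated with each other at 0.957 to 0.967 over tested probe sets, arrays of C24 at 0.954 to 0.971, and arrays of F1 with arrays of C24 at 0.926 to 0.960. One F1 array stood apart on a control: in deposited values, the 25S ribosomal RNA probe set read 1380, 41.4 and 1807 in F1 replicates 1, 2 and 3 and 90.7, 217 and 44.9 in C24. The control for the 3′ end of an actin transcript read 965 to 1128 in F1 and 107 to 159 in C24, while the control for its middle part read 961 to 1006 and 753 to 981. In Col these 2 controls read 1154 to 1379 and 785 to 1038. The shoot markers RCA and ATPC1, summed, were at 9342 to 10296 in F1 and 9697 to 10181 in C24. Quantile normalization holds the brightest probe sets of every array near the same values, so this closeness is partly built in. The median log2 difference of these 2 markers was -0.006 here, -0.320 with the deposited scaling and -0.447 with a common median. Of 6 root markers, 3 were too dim to be tested, among them the root hair gene EXPA7. Without PYK10, a beta-glucosidase gene described below, the 5 others summed to 31.7 to 51.9 in F1 and 29.9 to 44.0 in C24.

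More probe sets passed the test above C24 than below it, although the differences over all probe sets did not lean that way. Of 15922 probe sets above a filter on low signal (a mean signal of 11.1), 271 were higher in F1, which is 1.7% of those tested, and 60 were lower, which is 0.377% (limma, Benjamini-Hochberg adjusted p under 0.05). Together these made 2.08%. An unadjusted p under 0.05 was reached by 2062 probe sets, which is 13%. Over all tested probe sets 46.2% had a log2 difference above 0, and groups without overlap were seen in 1423 with F1 above C24 (8.94%) and in 1749 with F1 below (11%), together 19.9%. The 271 had a median log2 difference of 1.399 and the 60 a median of -1.348, while the median over all tested probe sets was -0.027. A change of at least 2-fold was reached by 209 of the higher and 42 of the lower probe sets, and of at least 4-fold by 71 and 10. In 50 of the 271 the C24 mean lay under the filter level, and in 2 of the 60 the F1 mean did. A single gene was named by 158 of the higher and 34 of the lower probe sets.

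The counts depended on the number of arrays. Without F1 replicate 1 they were 153 higher and 22 lower, and without F1 replicate 2 they were 145 and 24. Without C24 replicates 1, 2 and 3 the count lower was 27, 21 and 30. Of the 331 called probe sets, 324 were tested in all 9 fits with 1 array left out, and 124 of the higher and 14 of the lower ones kept their calls in every such fit.

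**Figure D1:**
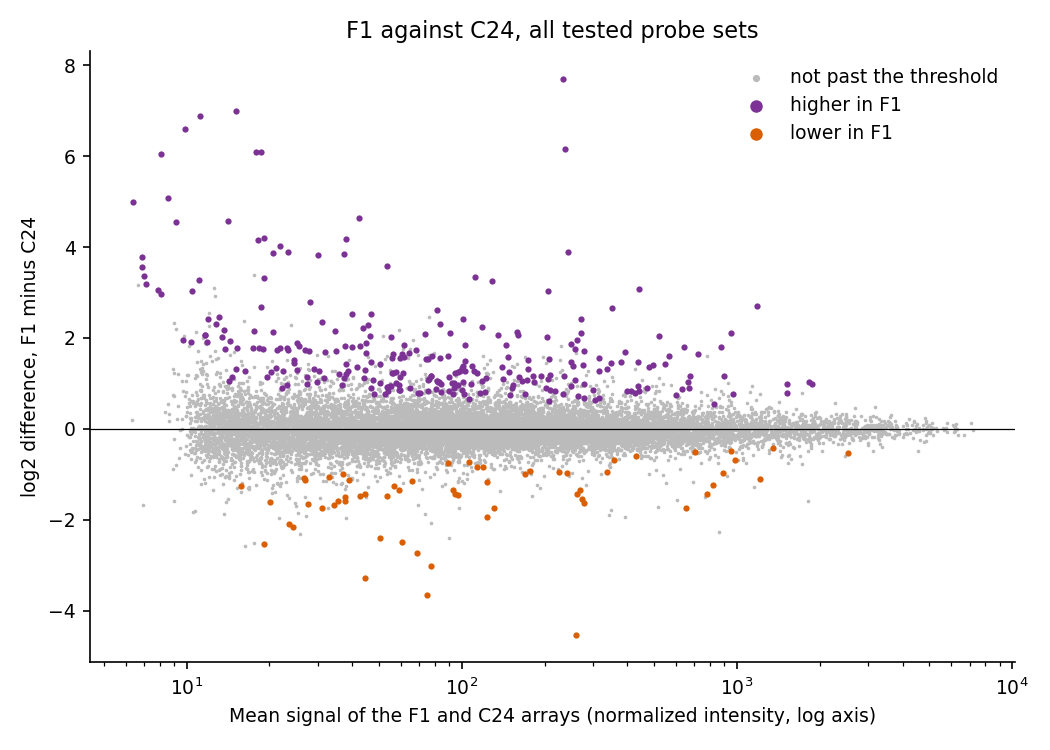
Each point is 1 of the 15922 tested probe sets, placed by the mean signal of its F1 and C24 arrays (normalized intensity, log axis) and by its log2 difference, F1 minus C24. The 271 probe sets past the threshold above 0 (purple) outnumber the 60 below 0 (orange), and at the dim end of the axis the called differences are mostly upward. The filter on low signal used the Col arrays as well.

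The share called was higher among dim probe sets. Of the 3981 dimmest tested probe sets, with F1 and C24 signals averaging 6.36 to 44.1 (geometric means), 92 were higher and 17 lower (2.74%). Of the 3981 brightest, from 262 upward, 47 were higher and 17 lower (1.61%). Genes with a locus on chromosomes 1 to 5 were called at 2.21%, 2.12%, 1.91%, 1.96% and 2.5%, and 0 of 62 plastid-encoded genes were called.

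Among named genes, the largest rises in F1 were in genes whose C24 signals lay near or under the filter level. ECS1 (AT1G31580), which encodes a small secreted cell wall protein, was at 3518, 3033 and 3597 in the F1 arrays and at 14.9, 16.1 and 17.6 in C24. Its log2 difference was 7.71 ± 0.17 (SE; adjusted p = 1.14e-08 in limma), and Col was at 4422 ± 949 (SD, n = 3). AT3G22240, from a family of short cysteine-rich proteins, was at 1103, 2023 and 3583 in F1 and 17.9, 41.7 and 29.2 in C24, a 71.7-fold difference. The F1 arrays of AT3G22240 differed among themselves by more than those of ECS1, yet all lay far above C24. QQS (AT3G30720), an orphan gene of Arabidopsis that modulates starch in leaves, read 101, 211 and 151 in F1 and 1.16, 6.42 and 1.36 in C24, with a log2 difference of 6.09 ± 0.56 (adjusted p = 0.000329). Its C24 signals were all under the filter level, so no fold is given.

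A further group of genes had steady F1 signals and C24 signals near the bottom of the scale. AT1G23960 was at 152, 204.5 and 159 in F1 and 0.948, 1.36 and 1.78 in C24. The serine carboxypeptidase-like gene scpl42 (AT5G42240) was at 155, 161 and 168 in F1 and 9.52, 8.69 and 8.42 in C24, with an adjusted p of 1.56e-07 in limma. AT5G45500 was at 145, 167.5 and 152 against 0.431, 8.59 and 1.34. In each of these 3 genes the spread within F1 was small beside the gap to C24. AT4G20480 was at 176, 161 and 227 in F1 and 17.6, 12.9 and 16.4 in C24.

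Some of the genes that rose encode metabolic enzymes. 2A6 (AT1G03410), from the family of 2-oxoglutarate and iron dependent oxygenases, was at 113, 113 and 115.5 in F1 and 9.45, 5.03 and 10.7 in C24. A second probe set of 2A6 was dim in both groups, at 20.2, 21.6 and 12.2 against 11.3, 14.2 and 12.4, and did not pass (adjusted p = 0.571). AT1G06640, of the same enzyme family, was at 227.5, 287 and 263 in F1 and 66.0, 50.6 and 47.5 in C24, a 4.76-fold difference (adjusted p = 0.000128). Both oxygenase genes were brighter still in Col, at 251 ± 46.7 and 393 ± 60.5.

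Mitochondrial genes were represented by a pair with bright F1 signals. AT2G33220, a gene of the GRIM-19 subunit of respiratory complex I, was at 358, 415 and 422 in F1 and 40.3, 43.5 and 41.9 in C24, a 9.49-fold difference with a log2 value of 3.25 ± 0.13 (adjusted p = 6.43e-07). ETFBETA (AT5G43430), the beta subunit of the electron transfer flavoprotein that passes electrons from branched-chain amino acid breakdown to the respiratory chain, was at 165, 203 and 188 in F1 and 29.9, 39.3 and 44.4 in C24. That was a 4.94-fold difference (adjusted p = 0.000154). The F1 means were 398 ± 35.3 and 185 ± 19.4 (SD, n = 3), beside Col means of 470 ± 29.3 and 205.5 ± 32.4.

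The remaining genes of the 15 highest were AT2G33850, AT2G43535, AT4G02540 and AT4G02850. AT2G33850 was 6.09-fold and AT2G43535, a gene of a small defensin-like protein, 5.78-fold higher in F1. AT4G02540, of a family with cysteine- and histidine-rich C1 domains, spread from 53.7 to 186 over the F1 arrays against 13.3 to 20.9 in C24. Its call was lost without Col replicate 3, without any 1 of the C24 arrays and without F1 replicate 2 or 3, with adjusted p of at most 0.13, and also with log2(value + 16) and with no filter. The call of AT4G02850, at 216, 173 and 76.8 in F1 and 3.53, 23.1 and 11.7 in C24, was lost with no filter and without F1 replicate 2 (adjusted p = 0.0505 for the latter).

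**Figure D2:**
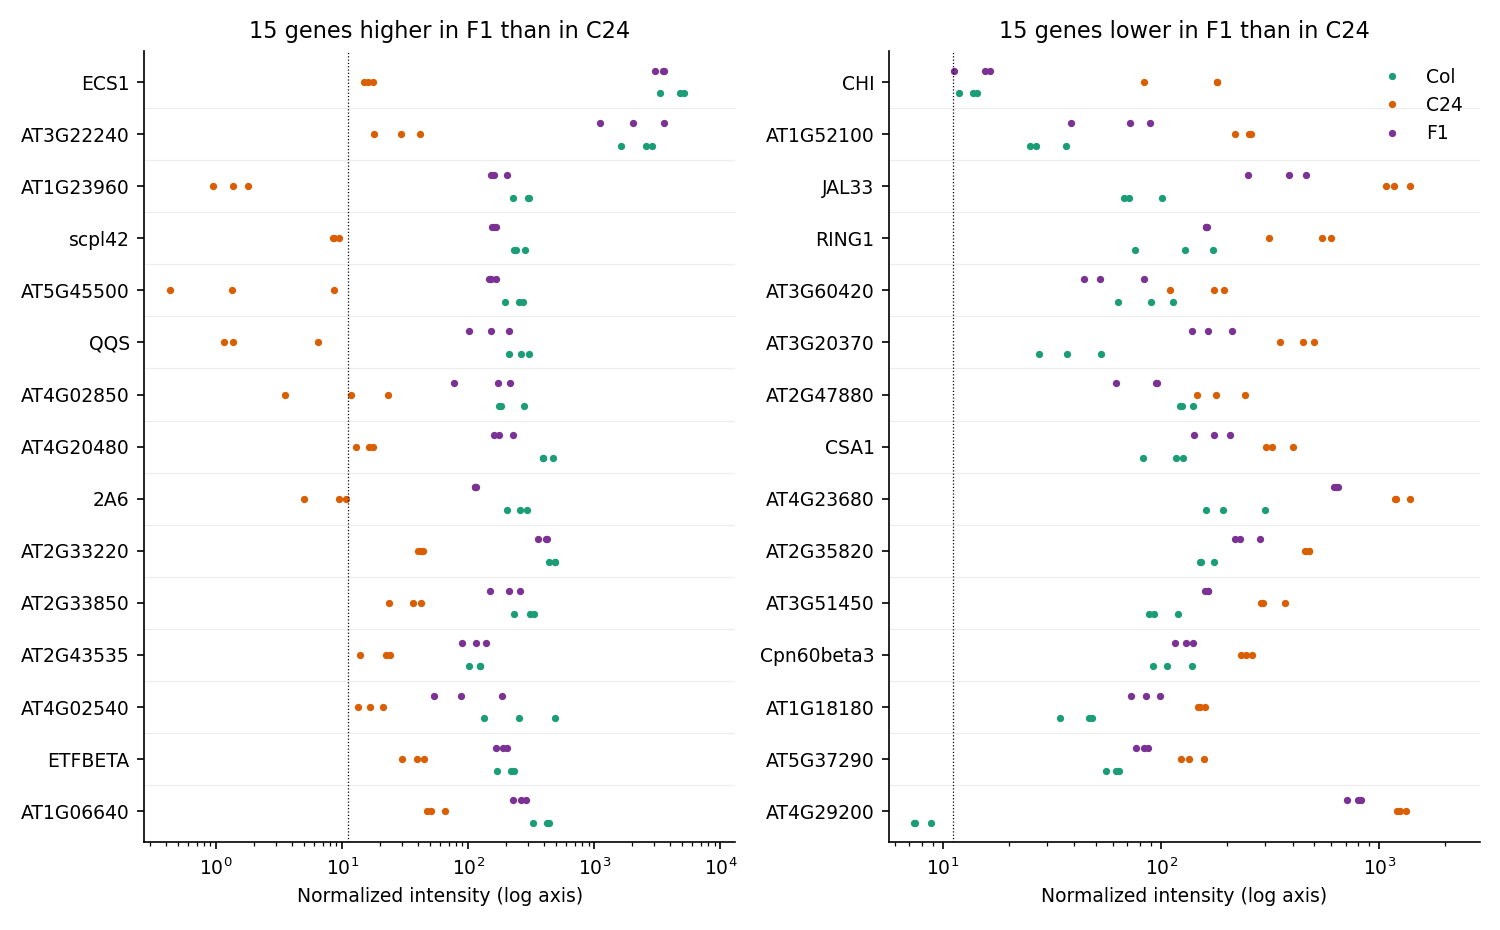
Each point is 1 array, placed by its normalized intensity on a log axis, for the 15 highest (left) and 15 lowest (right) genes, with F1 in purple, C24 in orange and Col in green. The dotted line marks the filter level of 11.1. F1 and C24 arrays do not overlap in any row, which the choice of genes required. On the left 5 genes have a C24 mean below the line, while on the right CHI alone has F1 signals near it.

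Among named genes above the median signal, those that fell furthest in F1 were a chitinase gene and a pair of jacalin lectin genes. Over all called probe sets, 11 fell by more than JAL33, the last of these, and 6 of the 11 have no single gene named here. The log2 differences of the 15 lowest named genes ran from -3.29 to -0.69, against 2.25 to 7.71 for the 15 highest. CHI, here the chitinase gene AT2G43570 and not chalcone isomerase, was at 15.6, 11.3 and 16.4 in F1 and 180, 180 and 83.7 in C24. Its log2 difference was -3.29 ± 0.31 (adjusted p = 0.000356), and Col was as dim as F1, at 13.3 ± 1.26. RING1 (AT5G10380), a ubiquitin ligase gene known from programmed cell death, was at 160, 162 and 160.5 in F1 and 544, 600.4 and 312 in C24, a 2.91-fold difference. The F1 arrays of RING1 were nearly equal, and the C24 arrays held most of the spread. AT3G20370, of the TRAF-like family, was at 163, 139 and 212 in F1 and 499.5, 349 and 444 in C24 (2.53-fold). AT4G23680, of the major latex protein family, was at 629, 622 and 647 in F1 and 1173, 1386 and 1189 in C24 (1.97-fold).

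Other genes that fell had roles in metabolism and the chloroplast. AT2G35820, a ureidoglycolate hydrolase family gene of purine breakdown, was at 284, 217.5 and 229 in F1 and 458, 473 and 477 in C24, a 1.94-fold difference (adjusted p = 0.0074). Cpn60beta3 (AT5G56500), a subunit of the chloroplast chaperonin, was at 116, 130 and 139 in F1 and 243, 260 and 232 in C24 (1.91-fold). AT3G51450, of the strictosidine synthase-like family, was at 159, 163 and 164 against 293, 287 and 369 (1.94-fold). For these 3 genes every F1 array lay below every C24 array, which the choice of genes required. The glutaredoxin family gene AT2G47880 was 2.24-fold lower and AT3G60420, of the phosphoglycerate mutase family, 2.68-fold lower in F1. AT4G29200 was at 796, 711 and 822.5 in F1 and 1238, 1198 and 1323 in C24, while Col was under the filter level at 7.86 ± 0.80. AT5G37290, of the armadillo repeat family, and AT1G18180 were 1.67-fold and 1.79-fold lower.

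Most of these falls lost their call when 1 array was left out. Of the 15 lowest genes, CHI, AT1G52100, JAL33 and AT2G35820 kept their calls whichever single array was left out. CSA1, AT4G23680, AT1G18180, AT5G37290 and AT4G29200 lost theirs when any 1 of the C24 or F1 arrays was dropped (adjusted p as high as 0.173, 0.154, 0.147, 0.119 and 0.155), and CSA1 also without Col replicate 2 or 3 and AT1G18180 and AT5G37290 without Col replicate 1 or 2. RING1 was lost without any F1 array or C24 replicate 1 or 2 (up to 0.14), AT3G20370 without F1 replicate 1 or 2 or any C24 array (0.119), and Cpn60beta3 without the same arrays (0.0951). AT3G60420 was lost without Col replicate 2 or 3, C24 replicate 1 or 2 or F1 replicate 1 or 2 (0.177), AT2G47880 without Col replicate 2, C24 replicate 1 or 3 or any F1 array (0.104), and AT3G51450 without C24 replicate 3 or any F1 array (0.0704). With no filter on low signal the calls of RING1, AT3G60420, AT3G20370, AT2G47880, CSA1, AT4G23680 and AT1G18180 were lost too. With the F1 and C24 arrays fitted alone AT3G60420, AT2G47880, CSA1, AT1G18180 and AT5G37290 were lost, and with the deposited scaling the same genes other than AT2G47880. A filter at the 50th percentile ended the calls of AT3G60420 and CSA1, and a fit with no variance trend those of AT3G60420, CSA1 and AT4G23680.

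Among 30 gene lists, 25 had a tested member, and of 428 tested list genes 16 were higher and 5 lower in F1, beside 1.7% and 0.377% of all tested probe sets. Salicylic acid and pathogen response genes are switched on by infection and by salicylic acid. Of 8 tested, 2 were lower and 1 was higher in F1, where 0.377% and 1.7% of all tested probe sets were. The list's median log2 difference was -0.95, with 1 of 8 above 0, where 46.2% of all tested probe sets were. CHI, above, was 1 of the lower. The other was CML41 (AT3G50770), a calmodulin-like gene, at 12.9, 8.60 and 13.8 in F1 and 55.1, 54.1 and 46.0 in C24 (log2 -2.16 ± 0.27, adjusted p = 0.00216). The gene that rose was AT5G52810, known as SARD4 and needed to make the immune signal pipecolic acid, at 31.0, 40.5 and 83.5 in F1 and 12.5, 3.94 and 7.93 in C24 (log2 2.69 ± 0.45, adjusted p = 0.0132), a call lost with no filter and with the F1 and C24 arrays fitted alone.

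The members of the salicylic acid list that missed the threshold differed in how far their arrays overlapped. AT2G44380, of a C1 domain family, was at 10.4, 16.6 and 8.94 in F1 and 72.4, 67.1 and 39.2 in C24 without overlap (adjusted p = 0.0729). AT5G55450, a lipid transfer protein gene, was at 194, 281 and 893 in F1 and 994, 965 and 608 in C24, so F1 replicate 3 reached into the C24 range (adjusted p = 0.304). SAG101, a partner of the immune regulator EDS1, and AT1G35710 had the smallest differences of the list and overlapped too (log2 -0.45 and -0.25, adjusted p = 0.694 and 0.863). GRX480, a glutaredoxin gene induced by salicylic acid, was at 20.2, 35.3 and 45.7 in F1 and 49.8, 70.3 and 41.0 in C24 (adjusted p = 0.364). F1 replicate 3 was the highest F1 array for CHI, CML41, AT5G52810, AT5G55450 and GRX480, and the lowest for AT2G44380.

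NLR genes encode the intracellular receptors that recognise pathogen effectors, and they are among the most variable genes between accessions. Of 49 tested, 7 were higher and 1 was lower in F1, together 16.3%, where 2.08% of all tested probe sets were called. The median log2 difference was 0.16, with 30 above and 19 below 0 (40 and 9 with the deposited scaling). AT4G19500 was at 59.6, 71.4 and 66.4 in F1 and 0.965, 0.699 and 0.865 in C24, with a log2 difference of 6.04 ± 0.19 (adjusted p = 8.74e-08). AT5G45510 was at 104, 159 and 95.7 against 27.9, 35.9 and 34.3, a 3.58-fold difference (adjusted p = 0.00176). In both genes Col was brighter than F1, at 140 ± 7.35 and 214 ± 35.6.

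The other 5 NLR genes that rose had smaller log2 differences than AT4G19500. AT5G11250 was at 26.9, 25.8 and 35.4 in F1 and 5.19, 10.6 and 4.90 in C24 (adjusted p = 0.00813). AT2G14080 was at 52.6, 55.3 and 38.7 against 9.98, 13.8 and 16.4 (adjusted p = 0.0145), a call lost with no filter, without F1 replicate 1 or 2 and without C24 replicate 1 or 2 (up to 0.0747). AT3G44630, AT4G36140 and AT4G16880, named after their values were seen, had log2 differences of 2.04, 2.08 and 3.28. The first was lost without C24 replicate 1 or 3 and F1 replicate 1 or 2 (up to 0.0951), the second when any F1 array was dropped (0.0992), and the last without any F1 array, C24 replicate 1 or 2 or Col replicate 2 or 3 (0.127). The 1 NLR gene that fell was CSA1 (AT5G17880), a receptor of the TIR class known from shade and immune responses, at 141, 174 and 207 in F1 and 302, 320 and 402 in C24 (log2 -0.98 ± 0.21, adjusted p = 0.0474). Receptor kinases of the S-domain and lectin classes, which sit at the cell surface, gave 0 calls among 14 genes, with 1 at an unadjusted p under 0.05. Their brightest member, AT1G61500, was at 178, 310 and 323 in F1 and 285, 550 and 579 in C24 (adjusted p = 0.489), so the groups overlapped.

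PYK10 is a beta-glucosidase of endoplasmic reticulum (ER) bodies, and jacalin-related lectins are known to form complexes with it when cells break. With the glucosinolates they belong to the chemical defence of the Brassicaceae. In this list of glucosinolate, myrosinase and jacalin genes, 2 of 11 were lower and 1 was higher in F1, the median log2 difference was -0.77, and 7 had all F1 arrays below all C24 arrays. Over all tested probe sets 11% had F1 below C24 without overlap, and 2.08% were called. JAL33 (AT3G16450) was at 387, 463 and 250 in F1 and 1160, 1068 and 1377 in C24, a 3.36-fold difference (adjusted p = 0.00437). AT1G52100 was at 72.1, 89.3 and 38.4 in F1 and 252, 218 and 259 in C24 (3.86-fold, adjusted p = 0.0069). Col was lower than F1 for both, at 80.1 ± 18.4 and 29.3 ± 6.18.

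Several members of the same group lay just outside the threshold. PYK10 (AT3G09260) was at 526, 621 and 816.5 in F1 and 1017, 1230 and 1840 in C24 (log2 -1.04 ± 0.23, adjusted p = 0.0573), and passed with the deposited scaling, with a common median and without C24 replicate 1. JAL22 and JAL34 had log2 differences of -0.72 ± 0.16 and -0.88 ± 0.20 (adjusted p = 0.0523 and 0.0589). PYK10 is also a root marker, and the 6 root markers with it summed to 578 to 848 in F1 and 1059 to 1870 in C24, while the sum of the other 5 overlapped between groups. BCAT4, an aminotransferase gene of methionine chain elongation for glucosinolates, was at 1558, 1474 and 1008 in F1 and 2361, 2151 and 2280 in C24 (adjusted p = 0.223). The gene that rose was AT2G25450, known as GSL-OH, an oxygenase that hydroxylates glucosinolate side chains. It was at 1268, 984 and 700.0 in F1 and 438, 472 and 485 in C24, a 2.06-fold difference (adjusted p = 0.0189). This call was lost with a common median, with no filter, with the F1 and C24 arrays fitted alone, and without F1 replicate 2 and C24 replicate 1 or 2 (up to 0.099).

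**Figure D3:**
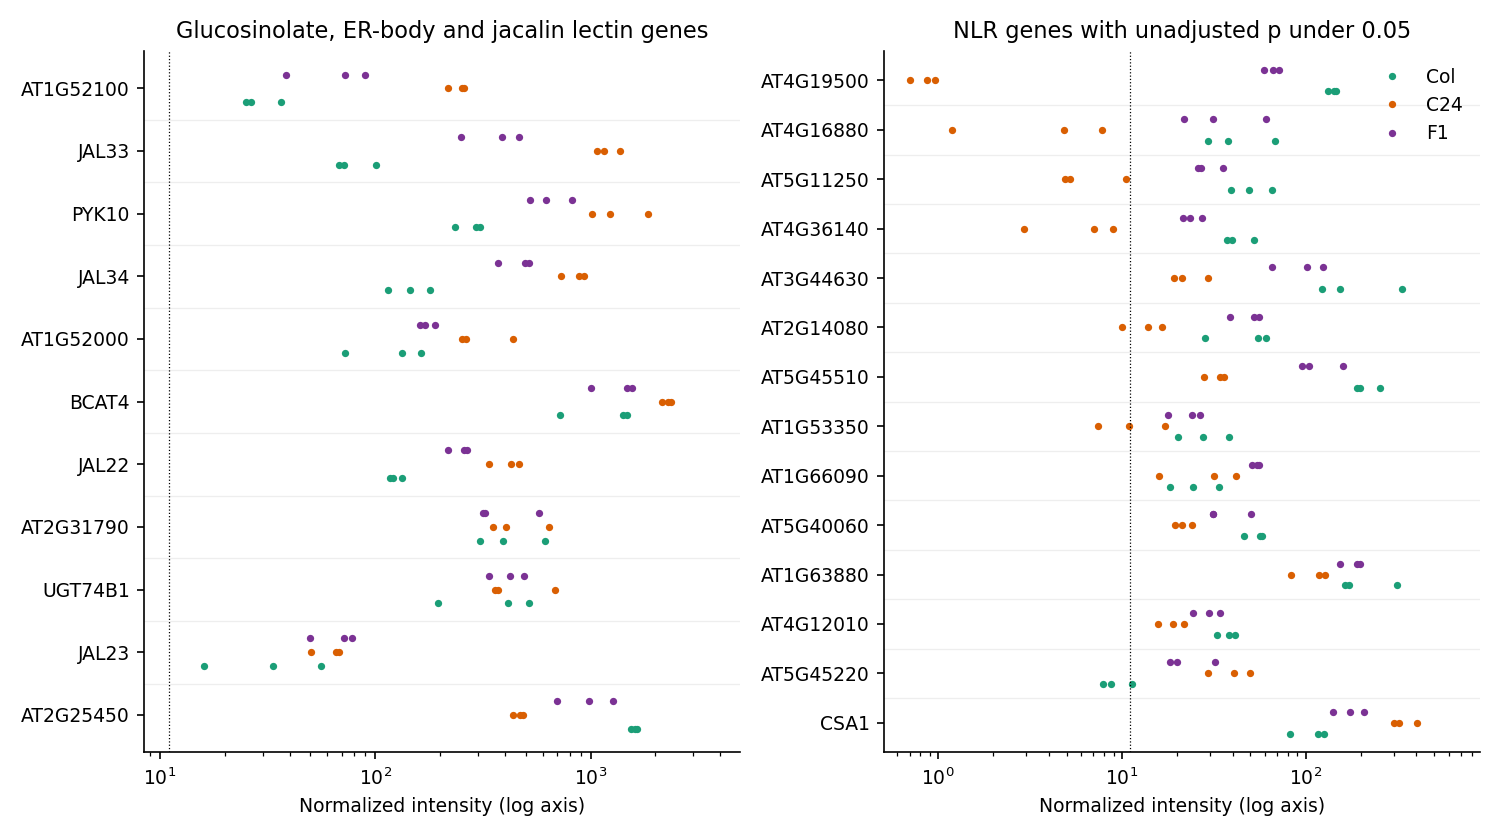
Each point is 1 array, placed by its normalized intensity on a log axis, for the 11 tested glucosinolate, ER-body and jacalin lectin genes (left) and the 14 NLR genes with an unadjusted p under 0.05 (right), with F1 in purple, C24 in orange, Col in green and the filter level of 11.1 as a dotted line. On the left, F1 lies below C24 in most rows and above it for AT2G25450, and on the right F1 lies above C24 except for CSA1 and AT5G45220.

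Flavonols and anthocyanins are phenolic pigments that accumulate in light-grown seedlings. All 7 tested genes of their synthesis had a log2 difference above 0 (6 with a common median), with a median of 1.24. An unadjusted p under 0.05 in limma was reached by 4 of them, and 1 passed the test. Over all tested probe sets 46.2% were above 0, 13% had such a p and 2.08% were called. UGT78D1 (AT1G30530), which adds rhamnose to flavonols, was at 122, 87.5 and 131 in F1 and 30.9, 17.5 and 37.9 in C24, a 4.08-fold difference (adjusted p = 0.0207). Its call was lost with no filter, without F1 replicate 1 or 3 and without C24 replicate 1 or 2 (up to 0.0807). DFR, the dihydroflavonol reductase gene, was at 357, 245 and 492 in F1 and 154, 146 and 144 in C24 (log2 1.24 ± 0.32, adjusted p = 0.104). The anthocyanin glycosyltransferase genes AT4G14090 and UF3GT overlapped between groups, with UF3GT at 209, 57.9 and 138 in F1 and 65.2, 35.0 and 19.2 in C24 (adjusted p = 0.36). F1 replicate 2 was the lowest F1 array of all 4 genes given here.

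UDP-glycosyltransferases attach sugars to hormones and other small molecules. Of 28 tested, 2 were higher and 0 lower (8 had an unadjusted p under 0.05 in limma), and 21 were above 0. Over all tested probe sets 2.08% were called, 13% had such a p and 46.2% were above 0. Beside UGT78D1 this was UGT85A2 (AT1G22360), at 117, 185.5 and 173.5 in F1 and 50.7, 56.1 and 46.2 in C24 (3.06-fold, adjusted p = 0.00243). Among 8 starch and sucrose genes QQS alone passed. APL3, a large subunit of ADP-glucose pyrophosphorylase, was at 93.3, 63.3 and 147 in F1 and 40.1, 27.1 and 30.1 in C24 (adjusted p = 0.0725), and the starch branching enzyme gene SBE2.2 was at 818, 748 and 977 against 618, 588 and 565.5 (adjusted p = 0.0834). Neither overlapped between groups.

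Genes of protein synthesis and cell growth gave few calls. Of 121 cytosolic ribosomal protein genes, 2 were higher and 0 lower (21 at an unadjusted p under 0.05), which at 1.65% is near the share over all probe sets. Their median was -0.11, with 86 of 121 below 0 (101 with the deposited scaling and 111 with a common median). AT2G40010, of the stalk protein P0, was at 91.4, 79.8 and 75.1 in F1 and 10.5, 2.52 and 3.35 in C24 (log2 4.20 ± 0.45, adjusted p = 0.000835). AT5G28060, of protein S24, was at 1006, 1026 and 972.0 against 661.0, 734.5 and 658 (1.46-fold, adjusted p = 0.0327), a call lost with the deposited scaling, with a common median, with no variance trend, with the F1 and C24 arrays fitted alone and without Col replicate 2 or any 1 C24 or F1 array (up to 0.139). The histone H2B gene HTB2 (AT5G22880) was at 309, 281 and 242 in F1 and 96.3, 121 and 115 in C24, a 2.50-fold difference (adjusted p = 0.00614), and was the 1 of 4 histone genes called. The other 3 were below 0, 2 of them without overlap of arrays, and the list's median was -0.265. Over all tested probe sets 2.08% were called and 11% had F1 below C24 without overlap. Cell wall expansion genes, expansins and wall-loosening enzymes among them, gave 0 calls of 21, with 2 at an unadjusted p under 0.05. The pectin methylesterase gene PME61 came closest, at 39.3, 34.8 and 49.4 against 27.0, 13.0 and 16.0 (adjusted p = 0.0687).

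Photosynthesis genes encoded in the nucleus gave no calls. The 7 antenna and photosystem genes had a median of -0.01 (-0.32 with the deposited scaling and -0.45 with a common median), with 3 at an unadjusted p under 0.05, the 8 chlorophyll synthesis genes a median of 0.01 and the 5 Calvin cycle genes a median of -0.01 (-0.32 and -0.45). Neither of these last lists had a member at an unadjusted p under 0.05. LHCB4.1, an antenna protein gene, was at 5662, 5868 and 6545 in F1 and 6274 in each C24 array, and RCA, Rubisco activase, at 5805, 5729 and 5420 against 5805, 5622 and 5321. Quantile normalization gives the same rank the same value on every array, so equal values here do not measure how closely arrays match. LHCB4.3 did not overlap between groups, at 1402, 1052 and 1011 against 952, 803 and 651 (adjusted p = 0.193). PORB, the light-dependent protochlorophyllide reductase gene, was at 2290, 2679 and 4138 in F1 and 3295, 3607 and 4257 in C24 (adjusted p = 0.529), but passed as lower with the deposited scaling and with a common median.

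Plastid-encoded transcripts depended on 1 array. With all arrays, 0 of 62 passed, 4 had an unadjusted p under 0.05, and the median was -0.22 with 39 below 0. In 60 of the 62, F1 replicate 2 was the lowest F1 array, and in 45 it was under 0.5 times the next F1 array. Among the F1 arrays this is the one with the low 25S ribosomal RNA signal, at 41.4, while the C24 arrays read 44.9 to 217 on that control. The part of F1 replicate 2 in these values was not tested further than by leaving it out. Without it, in values still normalized with all arrays, the direction turned, with a median of 0.33 and 48 of 62 above 0. In the fit normalized without F1 replicate 2, 1 gene was higher. For petA, the cytochrome f gene, F1 was at 460, 24.3 and 501 and C24 at 563, 543 and 947. For atpB, an ATP synthase subunit gene, F1 was at 5444, 1866 and 5537 and C24 at 5321, 5175 and 5729. A gene less touched by the array was psbL, of a small photosystem II subunit, at 170.5, 119 and 180 in F1 and 94.4, 89.9 and 94.98 in C24 (log2 0.73 ± 0.17, adjusted p = 0.068).

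**Figure D4:**
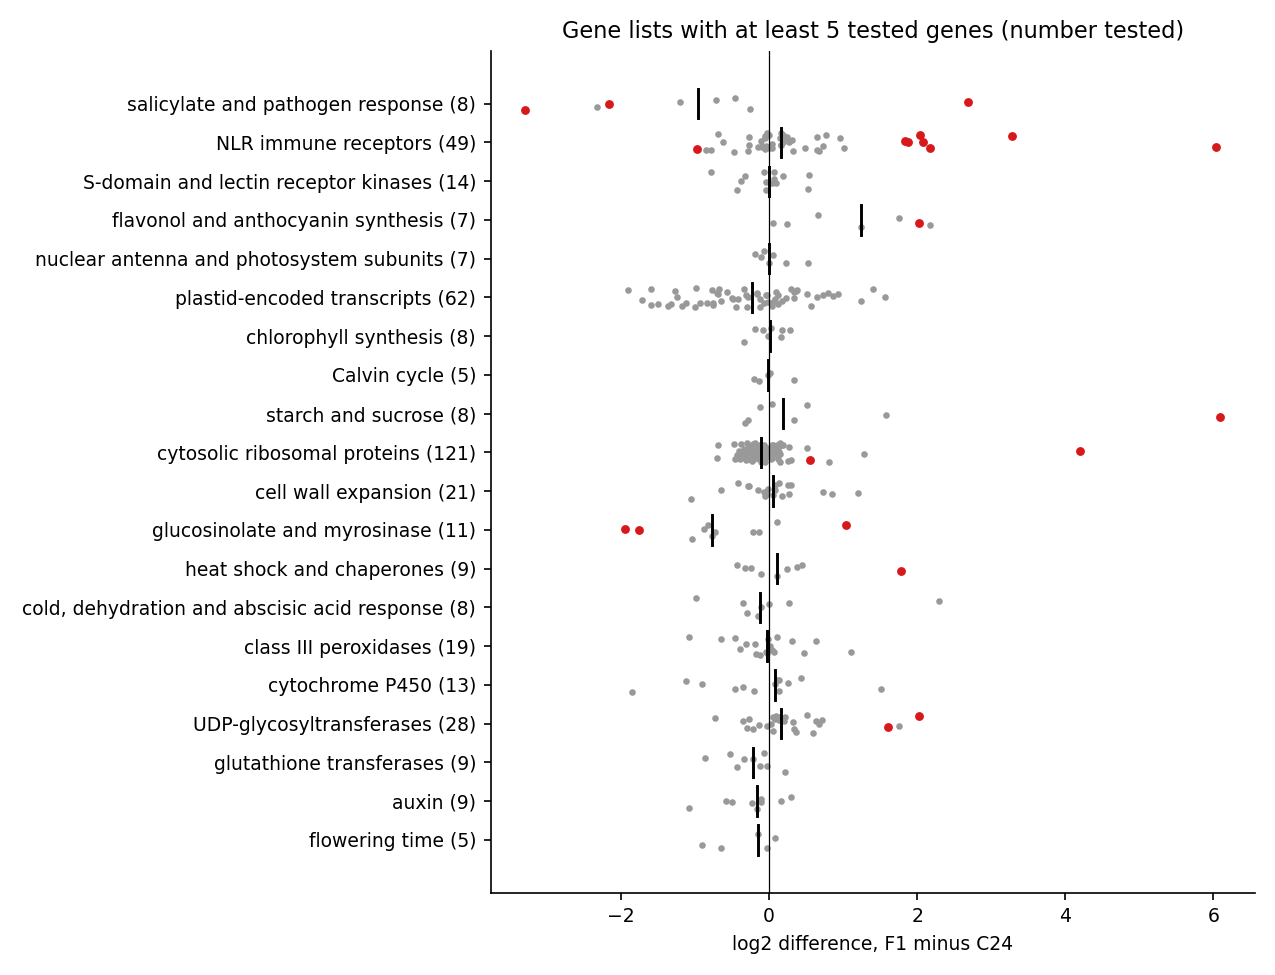
Each point is 1 tested gene, placed by its log2 difference (F1 minus C24), in the 20 lists with at least 5 tested genes, red where it passed the threshold and grey otherwise, and the black bar is the list's median. The salicylic acid and glucosinolate lists have medians of -0.95 and -0.77, the flavonol list 1.24, and the plastid list spreads on both sides of 0.

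Hormone, clock and stress lists held 1 call. AT5G48570, a heat-induced immunophilin gene, was at 35.4, 56.6 and 39.4 in F1 and 15.5, 16.0 and 7.81 in C24 (log2 1.79 ± 0.31, adjusted p = 0.0176), the 1 of 9 heat shock genes called. It was lost with no filter, with the F1 and C24 arrays fitted alone and without F1 replicate 2 or 3 (up to 0.0832). The lists of cold and abscisic acid response (8 genes, 2 at an unadjusted p under 0.05), jasmonate (3 and 2), auxin (9 and 1), clock (2 and 0), flowering time (5 and 1), peroxidases (19 and 1), P450 enzymes (13 and 3) and glutathione transferases (9 and 2) had 0 calls. Over all tested probe sets 2.08% were called and 13% had such a p in limma. The dehydrin gene LTI30 was at 39.6, 73.0 and 52.0 in F1 and 9.03, 4.64 and 30.4 in C24 (adjusted p = 0.0754), and the defensin gene PDF1.2b of the jasmonate response at 67.9, 54.5 and 48.9 against 17.1, 37.0 and 28.6 (adjusted p = 0.202). The clock gene GI was at 221, 299 and 276 in F1 and 278, 323 and 300.0 in C24 with overlap.

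Called genes also lay beside each other on chromosomes. Of 189 called genes with a place in the annotated order, 25 lay within 5 annotated genes of another called in the same direction, in 12 neighbourhoods, of which 11 were higher and 1 lower. On chromosome 5 AT5G45480, AT5G45500 and AT5G45510 were all higher, and these were all the genes tested in that span. AT5G45480 was at 57.5, 86.5 and 58.7 in F1 and 26.2, 19.5 and 34.2 in C24 (adjusted p = 0.0437). On the same chromosome scpl42 lay beside AT5G42250, at 56.0, 60.6 and 57.3 against 25.03, 25.5 and 24.4 (adjusted p = 0.0497). The lower neighbourhood was AT1G23840 and AT1G23850, at 14.1, 32.9 and 18.5 in F1 against 67.4, 73.3 and 46.6 for the first (adjusted p = 0.0342). The calls of AT5G45480, AT5G42250, AT1G23840 and AT1G23850 each depended on single arrays of F1, C24 and Col, with adjusted p up to 0.177, 0.172, 0.142 and 0.131 when 1 was left out. Whether neighbours came together more often than the density of called genes gives was not tested.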

How the data were processed

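The authors deposited 1 linear intensity for each probe set on each array. The submitters' processing notes name GCOS (version and settings not given in the sources used here). Deposited arrays share a trimmed mean of 148.9 to 149.3 without controls (2% left out at each end), and their medians span 0.24 in log2. With 64 controls set aside, values were quantile normalized (limma 3.58.1, R 4.3.3), floored at 1 and log2 transformed. Probe sets under the 30th percentile of mean log2 signal over all 9 arrays were left out (6824). One fit of 9 arrays with a mean per group (lmFit, eBayes with trend) gave F1 minus C24, Benjamini-Hochberg adjusted, with no replicate block. The number of arrays limits the precision. Folds are given where the dimmer mean exceeded 16.6. Genes come from the platform annotation, updated to TAIR10.1: 13513 probe sets name 1 gene, 503 several, and 8730 are unnamed here.

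Named genes are the 15 highest and 15 lowest called differences that name 1 gene, with the brighter mean above the median signal of 108 and no overlap of arrays, ranked with means raised to the filter level, up to 4 called genes per list by smallest p, levels of up to 2 bright members of lists without a call, and tissue markers. Others were chosen after their values were seen. The comparison and the lists were chosen with earlier results of these data known, and 7 lists were completed after gene names were seen. The fit was tested on simulated data, without the normalization step and with changes only in probe sets above the median signal. That test does not cover dim probe sets.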

Additional observations from a re-analysis of the deposited data

How the results depend on the processing

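The count of 271 probe sets higher and 60 lower in F1 was recomputed under each alternative. The count lower was 100 with a common median, 91 with log2(value + 16), 28 with the filter at the 50th percentile and 97 with a replicate block. With the replicate block the count higher was 351. F1 and C24 arrays of the same number correlated in their deviations at 0.46, 0.01 and 0.15 for numbers 1, 2 and 3. The values were 0.49, 0.15 and 0.20 for Col with C24, and 0.47, 0.11 and 0.12 for Col with F1. Arrays numbered 1 thus correlated across groups, and each correlated below 0 with every array numbered 2 or 3 of another group. Deviations within a group sum to 0, so these negative values are partly built in and add little. Arrays numbered 2 or 3 did not all correlate best with their own number. The numbers may therefore pair some of the arrays, and the main fit leaves this out. With the brightest probe set of each named gene alone, 166 were higher and 36 lower, over 8722 genes. Leaving out 1 array gave 145 to 265 higher and 21 to 75 lower. As alternatives chosen after seeing the data, leaving out all arrays numbered 1, 2 or 3 gave 106, 51 and 149 higher and 13, 4 and 32 lower. The deposited scaling gave 346 and 54. Higher calls were 81.9% of calls here, 86.5% with the deposited scaling and 72.5% with a common median. Where a named gene passed in the main fit or in an alternative, its direction was the same in both. RCA, which did not pass, had a log2 difference of 0.018 here. It lay below 0 with the deposited scaling and with a common median. Of 43 named genes that passed, 24 did so under all settings in which they were tested, apart from those chosen after seeing the data, and 25 in all such fits with 1 array left out. With no filter on low signal 14 of the 43 were lost, and with the F1 and C24 arrays fitted alone 9. PYK10 passed with the replicate block. The cause of the lost calls was not tested. A signal near the filter level was not separated from background, so the dimmer side of a large difference there is poorly known.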

Other observations

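The genes described here lie outside the lists and the ranking above. They were picked with their values known. All 10 were past the threshold in limma, with adjusted p of at most 0.0226. The first 3 encode chloroplast proteins, and Cpn60beta3 of the report, another chloroplast gene, was lower in F1. CcdA (AT5G54290), a thylakoid protein that carries reducing power for cytochrome assembly, was at 493, 542 and 478 in F1 and 153, 156 and 150.5 in C24 (3.29-fold, adjusted p = 3.4e-05). CCB3, which helps attach heme to cytochrome b6, was at 132, 104 and 101 in F1 and 58.2, 42.9 and 55.7 in C24 (2.15-fold), a call lost when C24 replicate 2 or 3 or any F1 array was dropped (adjusted p up to 0.095). AT5G28750, of the Tat family of thylakoid protein transport, was at 680, 695 and 743 against 178, 236 and 251 (3.22-fold).

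The other 7 genes have varied roles and were not treated as a group. ALDH6B2, a methylmalonate semialdehyde dehydrogenase gene of valine breakdown, was at 403, 454 and 505 in F1 and 124, 182 and 215 in C24 (2.67-fold). AT3G10860, a small subunit of respiratory complex III, was at 1118, 1180 and 1532 against 713, 796 and 706 (1.71-fold; adjusted p = 0.055 without C24 replicate 1), and the glyoxalase gene AT1G67280 at 1386, 1416 and 1256 against 603, 589 and 605 (2.26-fold). CLE41, a peptide signal of vascular stem cells, was at 282, 237.5 and 308 in F1 and 72.7, 82.9 and 72.6 in C24 (3.61-fold, adjusted p = 0.000614). AT5G03350, a legume-type lectin gene, was at 901, 1086 and 1186 against 488.5, 250.1 and 137.5, with C24 spread more widely than F1. Its call needed C24 replicate 2 and every F1 array (up to 0.0861 without 1 of them). AT1G76960 was at 113, 88.0 and 92.9 in F1 and 0.428, 0.722 and 0.342 in C24, under the median signal in F1 and so outside the ranking. AT1G10340, of the ankyrin repeat family, was lower in F1, at 4.58, 10.8 and 10.2 against 47.1, 51.9 and 39.2, and was lost without C24 replicate 3 or F1 replicate 1 or 2 (up to 0.0731). The other 6 kept their calls whichever array was left out.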
